A study of Mus musculus with 6 samples.

Results

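The livers of mice that carry 1 disrupted Cnot3 allele (Cnot3+/-) were compared here with those of wild-type mice after a 24 h fast. The comparison uses the 4 of 6 expression arrays that hold fasted liver RNA, 2 titled as fasted Cnot3het liver and 2 as fasted wild-type liver, and covers all 18193 genes that a single-gene probe set measured. All mice were 8-week-old male C57BL/6J mice on normal chow, and those fasted were housed singly without food and with water. The other 2 arrays hold liver of fed wild-type mice; their values are given beside some results, and no group combines the Cnot3+/- genotype with feeding. The labels call the arrays biological replicates, do not name the missing part of the gene, and state no pairing of arrays between the groups.

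Cnot3 is a subunit of CCR4-NOT, the main deadenylase complex of animal cells. The complex shortens the poly(A) tail of an mRNA and so starts its decay, and RNA-binding proteins such as Zfp36, the Tob and Btg proteins and the Tnrc6 proteins that act with microRNAs bring it to particular transcripts. In the fasted liver, hepatocytes stop making fat and sterols, burn fatty acids under PPARalpha, make glucose under glucagon, glucocorticoids and FoxO factors, and take apart their own proteins by autophagy while mTORC1 is held down.

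Levels are the authors' RMA values on the log2 scale, and the brightest single-gene probe set stands for each gene, so levels of different genes are not compared. A difference is the mean of the Cnot3+/- arrays minus that of the wild-type arrays in log2 units, where 1 is 2-fold, with its moderated standard error (SE) from limma over n = 2 arrays a group. A group mean at or under the array medians (5.59 to 5.64) was not shown to be above background. The defining hepatocyte transcripts (5 of 6 measured) read 14.49 to 15.26 on all arrays. The arrays correlated across genes at r = 0.995 within the wild-type group, 0.993 within the Cnot3+/- group and 0.992 to 0.996 between the groups; genes are not independent replicates. The Cnot3+/- arrays lay at least 2-fold apart at 177 genes and the wild-type arrays at 72. The first Cnot3+/- array also had the largest excess of 3' over 5' control signal for 3 of 4 transcripts, a measure of RNA integrity and labelling. For Pcx that excess was 4.12 against 2.81 on the second Cnot3+/- array and 2.67 and 1.87 on the fasted wild-type arrays. The fed arrays read 3.29 and 3.25 for Pcx, above the second Cnot3+/- array. The excess was 1.06 for Actb against 0.43 to 0.62 on the other arrays, and 0.31 for Gapdh against -0.14 to 0.06. By exact two-sided permutation these differences between the fasted groups gave p = 0.33 for Pcx, Gapdh and Tfrc, the smallest p that 2 arrays against 2 can give, and p = 0.667 for Actb. Where leaving out 1 of the 4 fasted arrays made the difference of a gene described here over 1.5 times smaller, the value without that array is given. Differences that grew in this way are mostly not given, such as 2.56 for Saa1 and -1.34 for Pecam1 without the second Cnot3+/- array. Whether the 3' excess of the Cnot3+/- arrays over the fasted wild-type arrays has a part in a result was not tested. Leaving out the first Cnot3+/- array does not remove it.

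The targeted gene itself did not separate the groups. Cnot3 read 9.27 and 9.32 on the wild-type arrays and 9.40 and 9.16 on the Cnot3+/- arrays, so the groups overlapped. The difference was -0.01 (SE 0.13), and its 95% confidence interval, from -0.33 to 0.30, does not reach a 2-fold lower level. A dimmer Cnot3 probe set read 6.33 and 6.05 in wild-type and 6.12 and 6.10 in Cnot3+/- liver. Both probe sets can lie outside the removed part, which the labels do not name, so the arrays are called Cnot3+/- by their label alone. Of the 11 CCR4-NOT subunits measured, 4 (36.4%) were higher on both Cnot3+/- arrays than on both wild-type arrays and 1 (9.09%) was lower. Among all genes above the median level, where all 11 lie, 23.3% were higher and 12.2% lower in this way. None of the 11 had an unadjusted limma p under 0.05. The deadenylase subunit Cnot6l read 10.41 and 10.31 against 10.54 and 10.55, and its paralogue Cnot6, the lower one, differed by -0.04 (SE 0.11). The scaffold-binding subunit Cnot2 differed by 0.22 (SE 0.14), Cnot10 by 0.19 (SE 0.12) and the deadenylase Cnot7 by 0.22 (SE 0.15). Without the first Cnot3+/- array Cnot2 differed by 0.07 and Cnot7 by 0.09, and without the second wild-type array Cnot6 by -0.01. The other probe sets of Cnot2, Cnot6, Cnot6l, Cnot7 and Cnot10 did not all share these signs.

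Across the transcriptome the genotypes lay close together and no gene passed the test. limma called 0 of 18193 genes at a Benjamini-Hochberg adjusted p under 0.05 (0%), and 1011 genes (5.56%) had an unadjusted p under 0.05, 601 of them higher (3.3%) and 410 lower (2.25%) in Cnot3+/- liver. The smallest adjusted p, 0.0963 in limma, belonged to Dnaic1, and all other genes were at 0.438 or above. Every difference below is therefore a measured value that did not pass the test. In 29 genes (0.159%) the Cnot3+/- mean was at least 2-fold higher and in 11 genes (0.0605%) at least 2-fold lower, and in 33 of these 40 genes the arrays of the groups did not overlap. The median gene differed by 0.115 in either direction, and 99% of genes differed by less than 0.642. For 17574 genes (96.6%) the 95% interval stayed within a 2-fold difference, and for 619 genes it reached 2-fold or beyond. The intervals come from the fit over all 6 arrays, in which the fed arrays share in the estimate of the spread. They bound the difference in RMA values for most genes, although RMA compresses differences of dim genes.

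The arrays of the groups did not overlap at 3182 genes higher in Cnot3+/- liver (17.5%) and 3360 lower (18.5%). Genes above the median level leaned upward: of 9096 such genes 60.1% had a difference above 0 (median 0.04), against 49.6% of all genes. Among these brighter genes 2118 (23.3%) were higher without overlap and 1108 (12.2%) lower, and 449 (4.94%) were higher and 146 (1.61%) lower at an unadjusted p under 0.05. How this lean of the brighter genes changes with cyclic loess or quantile normalization was not worked out. Of all genes that did not overlap, 48.6% were higher with the values as deposited, 51.0% after cyclic loess and 46.5% after quantile normalization. The share was 25.0% after each array was centred on the median of its brighter genes, which sets those medians equal by construction. That step moved the median difference of all genes from 0.00 to -0.07. Centring moves the difference of every gene, and the median of every list below, by the same -0.07, so a list median between 0 and 0.07 changes sign under it. Most genes of the lists are brighter genes (1236 of 1429 measured entries), so the counts of a list are read against 23.3% higher and 12.2% lower without overlap.

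**Figure D1:**
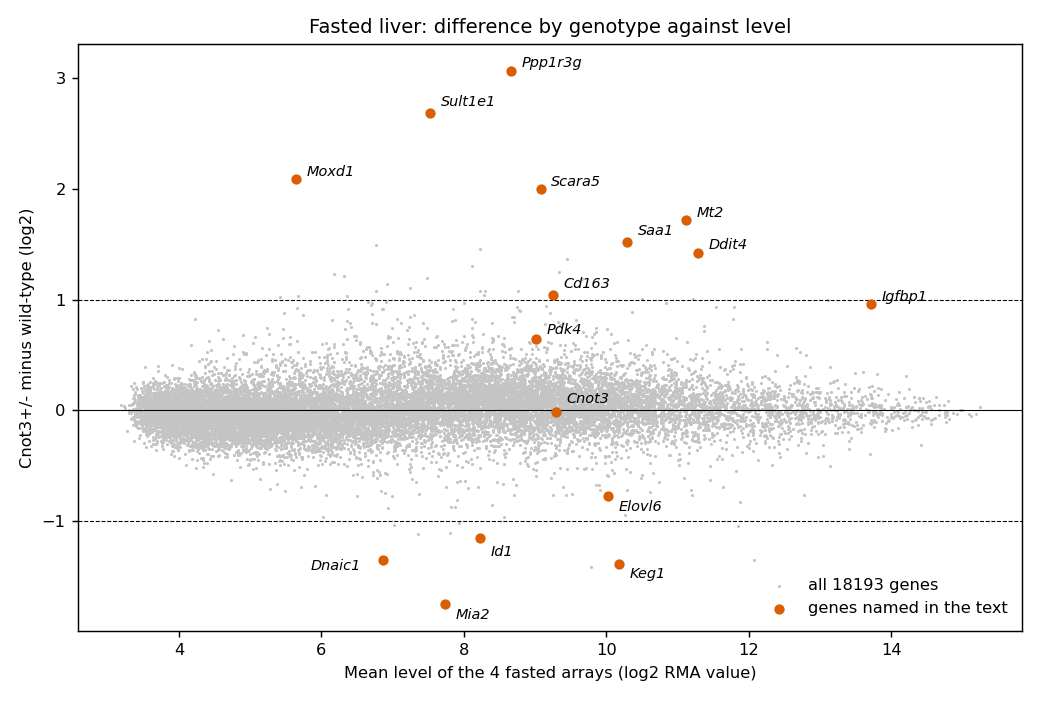
Difference between fasted Cnot3+/- and fasted wild-type liver (vertical axis, log2) against the mean level on the 4 fasted arrays (horizontal axis, log2 RMA value) for 18193 genes, with dashed lines at 2-fold; genes named in the text are orange and labelled. Nearly all genes lie within 2-fold of 0, Sult1e1 and Ppp1r3g lie highest at 2.69 and 3.07, Mia2 lies at -1.75, and Cnot3 lies at -0.01.

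Sult1e1, Ddit4 and Asns were among the genes most clearly higher in Cnot3+/- liver, and each was also higher on the fasted than on the fed wild-type arrays. Sult1e1, the sulfotransferase that inactivates oestrogens, read 6.35 and 6.01 on the wild-type arrays and 8.25 and 9.48 on the Cnot3+/- arrays. Its lower Cnot3+/- array thus exceeded its higher wild-type array by more than the arrays of either genotype differed. The difference was 2.69 (SE 0.35), or 6.44-fold, with an unadjusted p of 0.000104 and an adjusted p of 0.438 in limma, and the fed arrays read 5.21 and 5.16. Ddit4, which encodes the stress-induced mTORC1 inhibitor also called REDD1, read 10.70 and 10.45 in wild-type and 12.33 and 11.67 in Cnot3+/- liver, a difference of 1.43 (SE 0.21), and 9.47 and 9.46 in fed liver. Asns, asparagine synthetase, read 8.13 and 8.49 against 9.02 and 9.19 (difference 0.80, SE 0.16), and its other probe set differed by 1.27 in the same direction. The comparisons with fed liver share the fasted wild-type arrays with the genotype comparison, so the order of the 3 groups in these genes is a description.

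Other genes with the smallest p among those higher came from several processes. Wipi1, a phosphoinositide-binding autophagy protein, read 9.03 and 8.91 against 9.69 and 9.79, and all 5 of its other probe sets were also higher. The formin Fmn2 read 6.10 and 6.37 against 7.24 and 7.38, although 1 of its 2 other probe sets, which was dim, had the opposite sign. Snhg11, a host transcript of small nucleolar RNAs, read 5.80 and 5.62 against 7.13 and 6.72, close to its fed values of 6.94 and 7.02; its second probe set differed by -0.02 only, so this difference rests on 1 probe set. Gstm2, a glutathione transferase, read 9.31 and 9.43 against 10.07 and 10.02, between its fasted wild-type level and its fed level of 11.19 and 11.09. Fam25c had the same order, with 10.07 and 9.75 in fasted wild-type, 11.01 and 10.59 in Cnot3+/- and 10.89 and 10.85 in fed liver. The copine Cpne8 (difference 0.92, SE 0.16), the lipid flippase Atp10d (0.97, SE 0.17), the centriole protein Fbf1 (0.80, SE 0.14), the apoptosis signal kinase Map3k5 (0.66, SE 0.13) and Tmem71 (0.81, SE 0.16) were higher on both Cnot3+/- arrays. So were Ms4a6b (1.10, SE 0.20), a membrane-spanning protein of immune cells, and Il18bp (0.59, SE 0.12), the secreted inhibitor of interleukin 18, which read 7.48 and 7.58 against 8.13 and 8.12.

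Some of the largest differences came with a wide spread between arrays. Ppp1r3g, a glycogen-targeting subunit of protein phosphatase 1, read 6.13 and 8.12 in wild-type and 11.23 and 9.16 in Cnot3+/- liver. Its difference of 3.07 was the largest by this rule, but its SE was 1.09, and the fed arrays, at 9.02 and 6.04, lay about as far apart as its difference; without the first Cnot3+/- array the difference was 2.04. Scara5, a ferritin receptor, read 8.55 and 7.60 against 10.35 and 9.80 (difference 2.00, SE 0.53). Fst, follistatin, read 5.96 and 6.09 in wild-type liver and 8.87 and 6.16 in Cnot3+/- liver, so that its difference of 1.49 became 0.13 without the first Cnot3+/- array. Moxd1, a copper-dependent monooxygenase-like protein, read 4.65 and 4.54 against 7.38 and 5.98; its wild-type level was under the array medians, and its difference of 2.09 (SE 0.39) became 1.38 without the first Cnot3+/- array. Tg, thyroglobulin, whose wild-type level was also under the array medians, read 5.60 and 5.52 against 6.36 and 7.22 (1.23, and 0.80 without the second Cnot3+/- array).

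**Figure D2:**
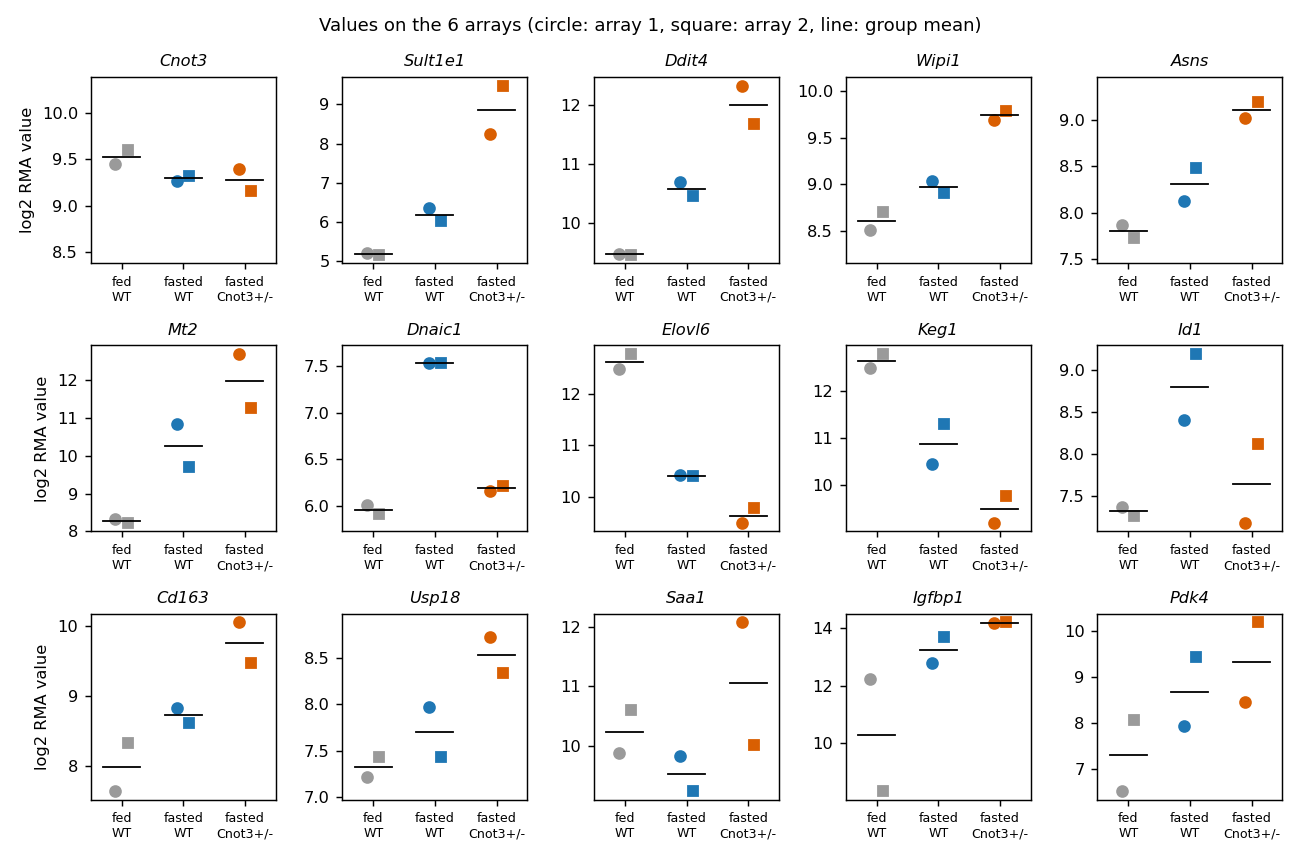
Log2 RMA values (vertical axes, each spanning at least 2 units) of 15 genes on the 2 fed wild-type (grey), 2 fasted wild-type (blue) and 2 fasted Cnot3+/- (orange) arrays, with circles for the first array, squares for the second and a line at each group mean. The fasted groups do not overlap for Sult1e1, Ddit4, Wipi1, Asns, Mt2, Dnaic1, Elovl6, Keg1, Id1, Cd163, Usp18, Saa1 and Igfbp1, and overlap for Cnot3 and Pdk4.

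Among genes lower in Cnot3+/- liver, Dnaic1 stood apart by its p. This gene, for an intermediate chain of axonemal dynein, read 7.53 and 7.54 in fasted wild-type liver and 6.16 and 6.21 in Cnot3+/- liver, close to 6.00 and 5.91 in fed liver. The difference was -1.35 (SE 0.11, unadjusted p = 5.29e-06, adjusted p = 0.0963 in limma), and a second probe set gave -0.82. Elovl6, the fatty acid elongase of de novo lipogenesis, read 10.41 and 10.40 against 9.48 and 9.78 (-0.78, SE 0.16), below fed values of 12.49 and 12.79; of its 2 other probe sets the brighter gave -0.48 and the dimmer 0.03. Keg1 read 10.45 and 11.29 against 9.20 and 9.77 (-1.39, SE 0.30), and Gas2, a growth-arrest protein of the cytoskeleton, read 9.44 and 9.63 against 8.94 and 8.91. Keg1, Gas2 and Elovl6 were highest on the fed arrays, as were Akr1d1 and Ccnd2. Akr1d1, the reductase that sets the ring geometry of bile acids, read 10.73 and 10.86 against 10.39 and 9.98 (fed 12.03 and 11.94), and the cyclin Ccnd2 read 7.07 and 7.29 against 6.50 and 6.73 (fed 7.82 and 7.91). The transcription factor Klf10 read 8.93 and 9.15 against 7.66 and 8.49 (-0.97, SE 0.25, and -0.55 without the first Cnot3+/- array), and the zinc-finger gene Thap12 read 10.22 and 10.21 against 9.68 and 9.80. Lower by 0.52 to 0.81 without overlap were also Rasgrp3, an exchange factor for Ras, the adhesion protein Nectin3 and the RNase P subunit Rpp40. So were the endosomal GTPase Rab5b, Nhsl1 and the endosomal protein Plekhf1. For Nectin3, Nhsl1 and Rab5b not every other probe set shared the sign. Nor did every one for Gas2 (0 of 1) and Ccnd2 (4 of 6), where those of opposite sign were dim.

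The largest differences downward again came with wide spreads, in some genes between the fed arrays rather than the fasted ones. Mia2, which encodes a liver protein of the secretory pathway, read 7.83 and 9.39 against 6.14 and 7.57, a difference of -1.75 (SE 0.57). Inhbe, the liver's activin E subunit, read 10.26 and 10.72 against 8.49 and 9.67 (-1.41, SE 0.56). Id1, a target of BMP signalling, read 8.41 and 9.19 against 7.18 and 8.12 (-1.15, SE 0.34), with fed values of 7.37 and 7.27. G0s2, the inhibitor of the triglyceride lipase Pnpla2, read 12.67 and 12.82 against 11.15 and 11.64, but its fed arrays lay at 9.60 and 12.63, which widened the SE to 0.82. Angptl8, an insulin-induced regulator of lipoprotein lipase, read 8.05 and 7.80 against 6.72 and 6.88 (-1.12). Its SE of 0.83 was likewise widened by the fed arrays, at 9.25 and 12.35. Nrep read 7.49 and 7.58 against 6.66 and 6.35 (-1.03, SE 0.32), with fed values of 9.42 and 10.51. Obp2a, an odorant-binding lipocalin, differed by -1.11 (SE 0.50), with fed values of 7.27 and 9.06. Sdr9c7, a short-chain dehydrogenase, differed by -1.01 (SE 0.34). Without the first Cnot3+/- array the differences were smaller, at -1.04 for Mia2, -0.82 for Inhbe, -0.69 for Id1 and -0.57 for Sdr9c7. Without the second wild-type array Mia2 differed by -0.97 and Id1 by -0.76.

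Among genes of the mRNA decay machinery around CCR4-NOT, single genes lay higher and lower. Of 33 recruiters and other deadenylases measured, 9 (27.3%) were higher and 4 (12.1%) lower without overlap, near the 23.3% and 12.2% of brighter genes, and the median was 0.09, or 0.01 without the first Cnot3+/- array. Btg2, an antiproliferative protein that binds the complex, read 9.48 and 10.50 in wild-type and 10.77 and 11.22 in Cnot3+/- liver (1.01, SE 0.34, and 0.50 without the first wild-type array). Tob2, of the same family, read 10.71 and 10.59 against 10.10 and 9.75 (-0.72, SE 0.18); 3 of its 4 other probe sets were also lower, while the brightest probe set not shared between transcripts differed by 0.10. Zfp36, which brings the complex to AU-rich mRNAs, read 11.28 and 11.17 against 10.95 and 10.71. The deadenylase Parn (0.37, SE 0.13) and Tnrc6a (0.36, SE 0.13), a microRNA effector, were higher, Tnrc6a in 7 of its 8 other probe sets too. Of 37 decapping, exosome and nonsense-mediated decay genes, 9 were higher (24.3%, about the 23.3% of brighter genes) and 0 lower without overlap, with a median of 0.08, or 0.01 when arrays were centred on their brighter genes; none had an unadjusted p under 0.05, and the decapping scaffold Edc4, at 7.90 and 7.86 against 8.17 and 8.15, came closest.

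The insulin and FoxO response was followed because fasting acts through it. Pdk4, the kinase that switches off pyruvate oxidation, read 7.94 and 9.43 in wild-type and 8.46 and 10.20 in Cnot3+/- liver, so the groups overlapped (difference 0.64, SE 0.74). Leaving out the second Cnot3+/- array turned it to -0.23 and leaving out the first wild-type array to -0.10. Igfbp1, a FoxO-driven binding protein for insulin-like growth factors, read 12.78 and 13.70 against 14.17 and 14.22 (0.96, SE 1.06, and 0.50 without the first wild-type array), with 12.26 and 8.33 on the fed arrays. Of 30 genes of this list 8 (26.7%) were higher, near the 23.3% of brighter genes, and 1 (3.33%) lower without overlap, with a median of 0.15 (0.08 after centring on brighter genes). Txnip, a thioredoxin-binding regulator of glucose uptake, read 10.84 and 11.14 against 11.64 and 11.87 (0.76, SE 0.16) and lay at 9.38 and 9.12 in fed liver. Irs2, the insulin receptor substrate that FoxO factors induce, read 6.78 and 6.85 against 8.09 and 7.23 (0.85, SE 0.29), and its difference was 0.42 without the first Cnot3+/- array. Insr, the insulin receptor, differed by 0.31 (SE 0.14), or 0.17 without the first Cnot3+/- array, and 1 of its 2 other probe sets shared the sign. Pnpla2, the triglyceride lipase, differed by 0.33 (SE 0.16), or 0.12 without the second Cnot3+/- array. The 21 gluconeogenesis genes had a median of 0.07 that became 0.00 after centring; Crtc2, a CREB coactivator, read 7.62 and 7.58 against 8.15 and 7.87, and the coactivator Ppargc1a read 7.64 and 8.81 against 9.28 and 9.32. The difference of Crtc2 was 0.41, or 0.27 without the first Cnot3+/- array, and that of Ppargc1a 1.07, or 0.49 without the first wild-type array.

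Nutrient-sensing genes held several of the smallest p values without a shift of their lists. Of 44 autophagy and mTORC1 genes, 16 (36.4%) were higher and 5 (11.4%) lower without overlap, against 23.3% and 12.2% of brighter genes. The median, however, was 0.04 and became -0.03 after centring. At an unadjusted limma p under 0.05, 4 genes were higher and 0 lower, against 4.94% and 1.61% of brighter genes. Besides Ddit4 and Wipi1 these were Atg2a, a lipid transfer protein of the growing autophagosome, at 9.34 and 9.31 against 9.85 and 9.90 (0.55, SE 0.12), and the initiating kinase Ulk1, at 10.46 and 10.53 against 10.80 and 10.96. Without the first Cnot3+/- array, 25 of the 44 genes exceeded both wild-type arrays, against 37.2% of all genes. The share of brighter genes in this setting was not worked out. In the lysosome list the cholesterol exporter Npc1 read 10.14 and 10.29 against 10.6 and 10.76, and the median of 36 genes was 0.05 (-0.02 after centring). Among 34 genes of the Atf4 integrated stress response the arrays disagreed, with list medians against the wild-type mean of -0.12 on the first and 0.31 on the second Cnot3+/- array and of -0.13 and 0.13 on the wild-type arrays. Eif2ak4, the amino acid sensing kinase GCN2, read 5.52 on both wild-type arrays, under the array medians, and 5.84 on both Cnot3+/- arrays.

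The Asns promoter is shown because Asns is the classical target of that response and was the member with the smallest p after Ddit4. The window is the 250 bases before the RefSeq start, on the minus strand of GRCm38.p6 at chr6:7693210-7693459, printed 5′ to 3′ with capitals for the letters TGATGNAA, a form of the amino acid response element, searched on both strands.
Asns: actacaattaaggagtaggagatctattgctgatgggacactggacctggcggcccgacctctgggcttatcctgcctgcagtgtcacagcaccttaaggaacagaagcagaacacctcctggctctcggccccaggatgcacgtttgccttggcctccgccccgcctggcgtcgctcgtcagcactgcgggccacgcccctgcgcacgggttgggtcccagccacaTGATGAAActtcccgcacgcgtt
It holds 1 match. These letters occur in 3.45% of all 32851 RefSeq promoter windows of this length. They occur in 9 of the 29 members of the list that have a window (31%). A member counts if any of its windows holds the letters, so the shares are not like for like. Among those 9 the difference ranged from -0.67 in Fgf21 to 0.80 in Asns, so members with the letters did not share a direction.

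Genes of fatty acid use sat slightly lower, mainly on the first Cnot3+/- array. Of 34 PPARalpha targets, 26 had a difference under 0 and 12 (35.3%) were lower without overlap, against 12.2% of brighter genes and 18.5% of all genes, with a median of -0.11; without the first Cnot3+/- array 20 were under 0 and the median was -0.04. Acot1, a cytosolic acyl-CoA thioesterase, read 12.12 and 11.85 against 11.23 and 11.35 (-0.70, SE 0.19), above its fed values of 9.21 and 9.75, and Retsat, retinol saturase, read 14.54 and 14.62 against 14.14 and 14.38 (-0.32, and -0.20 without the first Cnot3+/- array). The 30 fatty acid oxidation genes had a median of -0.06 and 10 (33.3%) lower without overlap, and none had an unadjusted p under 0.05; without the first Cnot3+/- array the median was -0.02 and 14 of 30 had a difference above 0. Of 30 lipogenesis genes 4 were higher and 4 lower without overlap. Acly, ATP citrate lyase, read 10.64 and 10.77 against 10.21 and 10.44. Of its 5 other probe sets 3 were also lower, and the brightest of them differed by 0.0015. Dgat1, which makes triglycerides, read 9.84 and 9.81 against 10.10 and 10.17 (a dim second probe set gave -0.11). The 23 cholesterol genes had a median of -0.11 and 0.00 without the first Cnot3+/- array; the sterol carrier Stard4 read 8.00 and 8.83 against 7.52 and 7.89 (-0.70, and -0.29 without the second wild-type array).

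Detoxification and bile acid genes showed single-gene differences in both directions and list medians between -0.02 and 0.03. Besides Sult1e1 and Gstm2, the conjugating enzymes included Gsta3 (13.29 and 13.49 against 12.77 and 13.01) and Gsta4 (10.30 and 10.54 against 9.93 and 10.05), glutathione transferases that were lower. Nr0b2, the bile acid induced repressor SHP, read 10.75 and 11.12 against 10.45 and 10.29 (-0.57, SE 0.16), and Abcg5, a sterol exporter, read 10.93 and 11.07 against 11.62 and 11.40 (0.51, SE 0.20). Among 33 hepatocyte transcription factors, Thrb, the liver's thyroid hormone receptor, read 7.15 and 7.61 against 6.16 and 6.82 (-0.88, SE 0.25, and -0.55 without the first Cnot3+/- array), and Prox1 read 8.61 and 8.49 against 7.90 and 7.83, with the opposite sign in both of its other probe sets.

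The median of the macrophage transcripts was higher on both Cnot3+/- arrays. Of 27 macrophage and Kupffer cell genes, 16 (59.3%) were higher and 2 (7.41%) lower without overlap, against 23.3% and 12.2% of the brighter genes. At an unadjusted limma p under 0.05, 9 were higher and 0 lower, against 4.94% and 1.61% of brighter genes. The median was 0.32 (0.26 after centring on brighter genes). The 14 defining markers set for these cells are members of this list, so their counts are no separate support. All were above the array medians on average, all 14 had a difference above 0, and 12 did not overlap. The 6 list members with a difference under 0, 2 of them lower without overlap, thus lie outside the markers. Cd163, the haemoglobin scavenger receptor, read 8.84 and 8.62 against 10.06 and 9.47 (1.04, SE 0.27). The complement C1q chains, which liver macrophages make, read 9.64 and 9.72 against 10.39 and 9.94 for C1qa, 10.09 and 10.23 against 10.82 and 10.46 for C1qb, and 9.16 and 9.35 against 9.83 and 9.53 for C1qc. The scavenger receptor Marco read 7.01 and 7.55 against 8.21 and 7.67, and Cd5l, secreted by Kupffer cells, 11.15 on both wild-type arrays against 12.04 and 11.34. Without the first Cnot3+/- array the differences went from 0.49 to 0.26 for C1qa, from 0.48 to 0.30 for C1qb, from 0.42 to 0.28 for C1qc, from 0.66 to 0.39 for Marco and from 0.54 to 0.19 for Cd5l, and Marco was also at 0.39 without the first wild-type array. In all 6 genes the first Cnot3+/- array was the higher one, and the list median against the wild-type mean was 0.48 on the first and 0.13 on the second, with wild-type arrays at -0.02 and 0.02. That array is also the one with the larger 3' excess (4.12 for Pcx, against 2.81 on the second), whose part here was not tested. Without the first array 17 of 27 genes exceeded both wild-type arrays, and at an unadjusted p under 0.05 1 gene was higher and 2 were lower; over all genes 37.2% exceeded both, and 2.95% were higher and 1.8% lower at that p. Those shares are of all genes, not of brighter genes. In whole liver RNA more macrophages and more RNA per macrophage cannot be told apart, and the same holds for every cell type below.

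The median of the endothelial genes was lower. Of 27 sinusoidal endothelial genes, 13 (48.1%) were lower and 1 (3.7%) higher without overlap, against 12.2% and 23.3% of brighter genes. At an unadjusted limma p under 0.05, 1 gene was lower and 0 higher, against 1.61% and 4.94% of brighter genes. The list median was -0.19 on the first and -0.10 on the second Cnot3+/- array. Pecam1 read 6.82 and 6.96 against 5.55 and 6.69, so that its difference of -0.77 became -0.20 without the first Cnot3+/- array, and the receptor Nrp1 read 10.46 and 10.16 against 10.13 and 9.31, with 1 of its 3 other probe sets of the opposite sign; its difference of -0.59 became -0.18 without the second Cnot3+/- array. The summed level of the list was 13.42 and 13.47 (log2) on the Cnot3+/- arrays and 13.60 and 13.61 on the wild-type arrays. Of the 7 defining endothelial markers 4 were lower and 1 higher without overlap and 2 had a difference above 0, and their summed level was 11.69 and 11.90 on the Cnot3+/- arrays against 11.95 and 11.88 on the wild-type arrays, so the groups overlapped in it. Among 27 stellate cell and fibroblast genes the basement membrane chains Col4a1 (8.53 and 8.91 against 9.42 and 9.34) and Col4a2 (0.46, SE 0.13) were higher, as was Pdgfra, at 7.42 and 7.34 against 7.72 and 7.67 (1 of its 2 other probe sets had the opposite sign); the list median was 0.24 on the first and -0.01 on the second Cnot3+/- array. Neutrophil, adipocyte, cholangiocyte and skeletal muscle lists had medians from -0.22 to -0.09 and held 0 or 1 gene above the median level each.

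**Figure D3:**
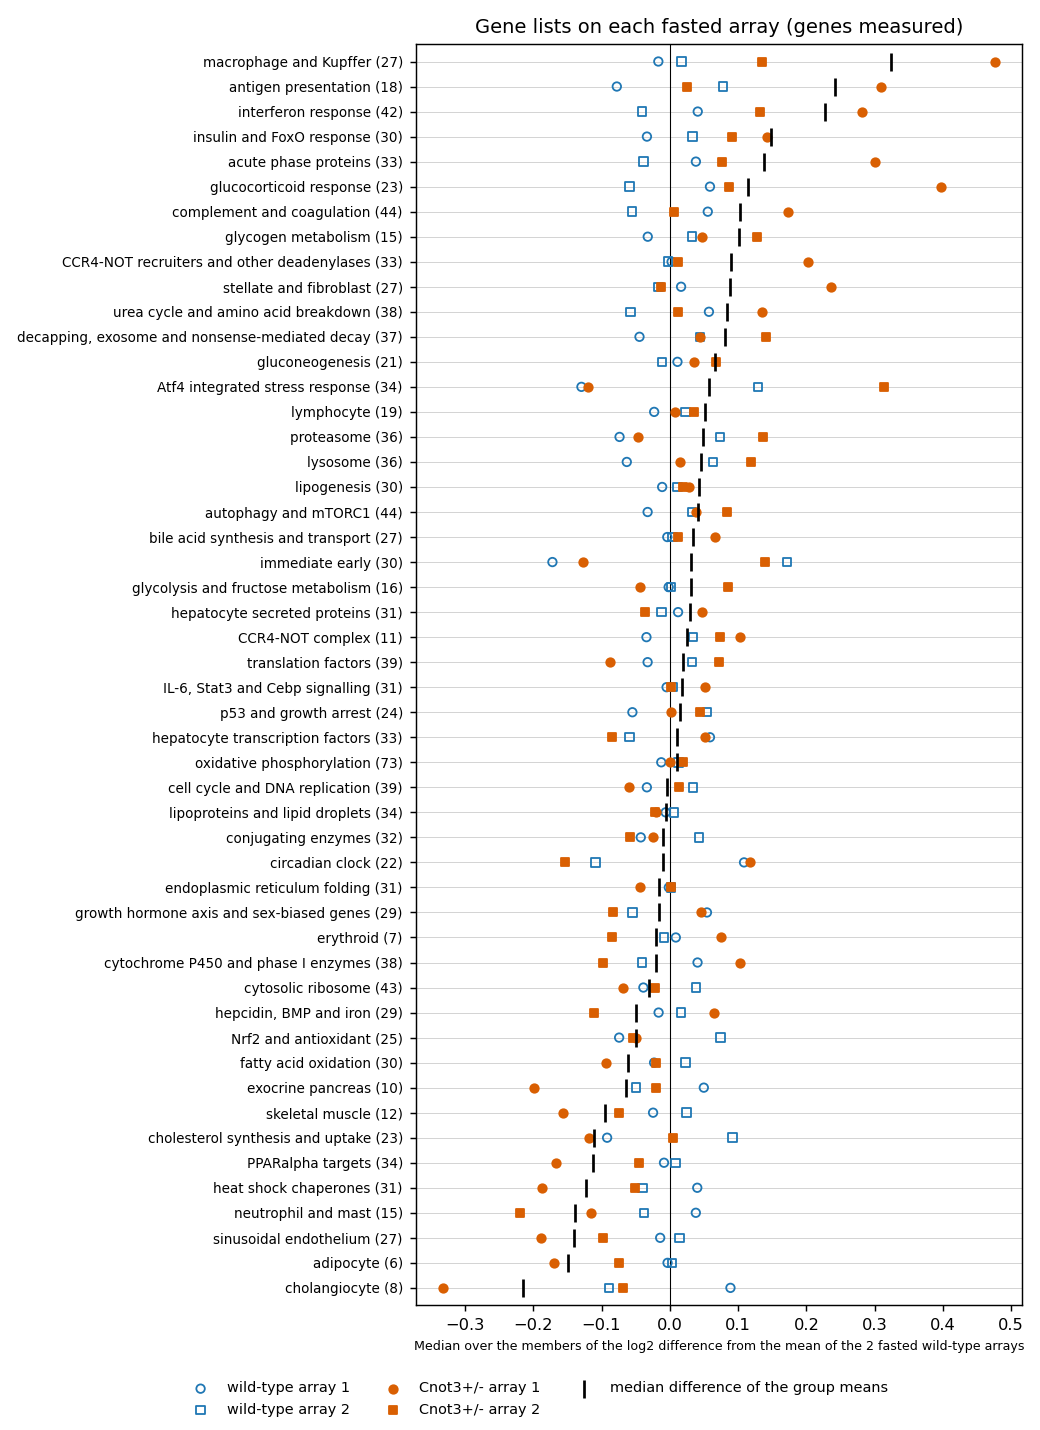
Median over the members of each gene list of the log2 difference from the wild-type mean (horizontal axis, fasted arrays) on each fasted array, for the 50 lists with at least 3 measured genes (number in brackets); the bar marks the median difference between the group means, which need not lie midway between the arrays. The macrophage list reaches 0.48 on the first and 0.13 on the second Cnot3+/- array, and for 40 of the 50 lists all 4 arrays lie within 0.2 of 0.

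Interferon response genes were higher together by small amounts. Of 42 measured, 35 had a difference above 0, against 60.1% of brighter genes. Without overlap 15 (35.7%) were higher and 1 (2.38%) lower, against 23.3% and 12.2% of brighter genes. At an unadjusted limma p under 0.05, 10 were higher and 0 lower, against 4.94% and 1.61% of brighter genes. The median was 0.23 (0.16 after centring on brighter genes). The list median was 0.28 on the first and 0.13 on the second Cnot3+/- array. Usp18, the protease that removes ISG15, read 7.97 and 7.44 against 8.73 and 8.33 (0.83, SE 0.21). Oas1a, an oligoadenylate synthetase, read 7.32 and 7.35 against 8.01 and 7.84, and the guanylate-binding protein Gbp3 read 6.40 and 6.24 against 7.43 and 6.79 (0.79, and 0.47 without the first Cnot3+/- array). Ifi27 (10.77 and 10.52 against 11.43 and 11.16), the RNA sensor Ifih1 (9.12 and 9.04 against 9.46 and 9.58) and Ifi35 (10.71 and 10.64 against 11.24 and 11.03) had the same order. Without the first Cnot3+/- array 29 of 42 had a difference above 0, against 53.5% of all genes. In that setting 18 (42.9%) exceeded both wild-type arrays, against 37.2% of all genes. The shares of brighter genes there were not worked out. Of 18 antigen presentation genes, 6 (33.3%) were higher and 0 lower without overlap, against 23.3% and 12.2% of brighter genes. The immunoproteasome subunit Psmb8 read 8.98 and 9.24 against 9.56 and 9.50, and the cathepsin Ctss 9.84 and 9.87 against 10.28 and 10.08. The class I transactivator Nlrc5 read 7.66 and 7.45 against 8.45 and 7.75 (0.54, and 0.19 without the first Cnot3+/- array). The median of that list was 0.31 on the first and 0.03 on the second Cnot3+/- array.

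The promoters of Oas1a and Gbp3 are shown because both genes were higher on both Cnot3+/- arrays and hold the letters of the element through which interferon acts. Each is the 250 bases before a RefSeq start in GRCm38.p6, Oas1a on the minus strand at chr5:120907526-120907775 and Gbp3 on the plus strand at chr3:142559794-142560043, printed 5′ to 3′ with capitals for GAAA followed by another GAAA 2 bases on, the core of the interferon-stimulated response element, on either strand.
Oas1a: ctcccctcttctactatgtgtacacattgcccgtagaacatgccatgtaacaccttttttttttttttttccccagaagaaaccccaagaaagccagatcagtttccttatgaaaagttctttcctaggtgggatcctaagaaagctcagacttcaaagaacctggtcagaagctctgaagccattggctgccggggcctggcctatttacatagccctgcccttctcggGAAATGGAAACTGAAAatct
Gbp3: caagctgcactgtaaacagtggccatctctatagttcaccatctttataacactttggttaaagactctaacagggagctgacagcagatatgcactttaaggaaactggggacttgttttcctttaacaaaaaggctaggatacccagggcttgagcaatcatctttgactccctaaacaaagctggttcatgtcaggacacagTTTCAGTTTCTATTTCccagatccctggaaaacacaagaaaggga
Each holds 2 overlapping matches, on the printed strand in Oas1a and on the opposite one in Gbp3, whose second RefSeq window has none. The letters occur in 2.98% of all promoter windows and in 13 of the 32 list members with a window (40.6%). The first share counts windows, while the second counts genes with the letters in any of their windows, so they are not like for like. Of those 13 genes, Gbp3, Oas1a and Rsad2 were higher without overlap, Stat2 was lower, and 9 overlapped. Rsad2 differed by 0.36, or 0.23 without the second wild-type array, and Stat2 by -0.39, or -0.22 without the second Cnot3+/- array. A match is a description of the letters, not a binding site.

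Acute phase proteins, many of which hepatocytes secrete under interleukin 6 and Stat3, were also higher, most on the first Cnot3+/- array. The list includes the metallothionein Mt2, its largest difference at 1.72, which is also counted in the glucocorticoid list below. Of 33 measured, 31 had a difference above 0, and 14 (42.4%) were higher and 0 lower without overlap, against 23.3% and 12.2% of brighter genes. At an unadjusted limma p under 0.05, 8 were higher and 0 lower, against 4.94% and 1.61% of brighter genes. The median was 0.14, or 0.07 after centring on brighter genes and 0.08 without the first Cnot3+/- array. The serum amyloids read 9.82 and 9.23 against 12.08 and 10.01 for Saa1 and 7.56 and 7.37 against 9.57 and 7.96 for Saa2, and the siderophore-binding Lcn2 read 7.67 and 7.34 against 9.76 and 8.15. The first Cnot3+/- array is the one with the larger 3' excess, whose part here was not tested. Without this array the differences of Saa1, Saa2 and Lcn2, at 1.52, 1.30 and 1.45, became 0.49, 0.50 and 0.65. Saa1 and Saa2 are near-identical copies, so their probe sets may share signal. Apcs, serum amyloid P, read 10.50 and 10.94 against 12.09 and 11.36 (1.0, SE 0.27, and 0.64 without the first array), and Orm3, an orosomucoid, read 7.65 and 7.90 against 8.66 and 8.25. Without the first array 23 of 33 had a difference above 0, 5 had an unadjusted p under 0.05 and were higher and 2 were lower by that measure. Stat3 itself read 10.94 and 11.07 against 11.51 and 11.44 (0.47, SE 0.13), with both Cnot3+/- arrays alike, and the receptor Il6ra read 9.28 and 8.87 against 10.11 and 9.51 (0.73, and 0.43 without the first Cnot3+/- array). The IL-6, Stat3 and Cebp list as a whole had a median of 0.02, with 8 of 31 genes (25.8%) higher and 7 (22.6%) lower without overlap, and 2 of its genes were higher and 2 lower at an unadjusted p under 0.05. The lower ones were Irak2, a kinase of interleukin 1 and Toll-like receptor signalling, at 8.77 and 8.81 against 8.21 and 8.53 (-0.42, and -0.26 without the first Cnot3+/- array), and Tnfaip3, the NF-kappaB inhibitor A20, at 6.29 and 6.38 against 5.83 and 6.09 (-0.37, and -0.24). In the complement and coagulation list, properdin (Cfp) differed by 0.67 (SE 0.17), or 0.44 without the first Cnot3+/- array, and protein S (Pros1) read 10.21 and 10.23 against 10.74 and 10.80.

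**Figure D4:**
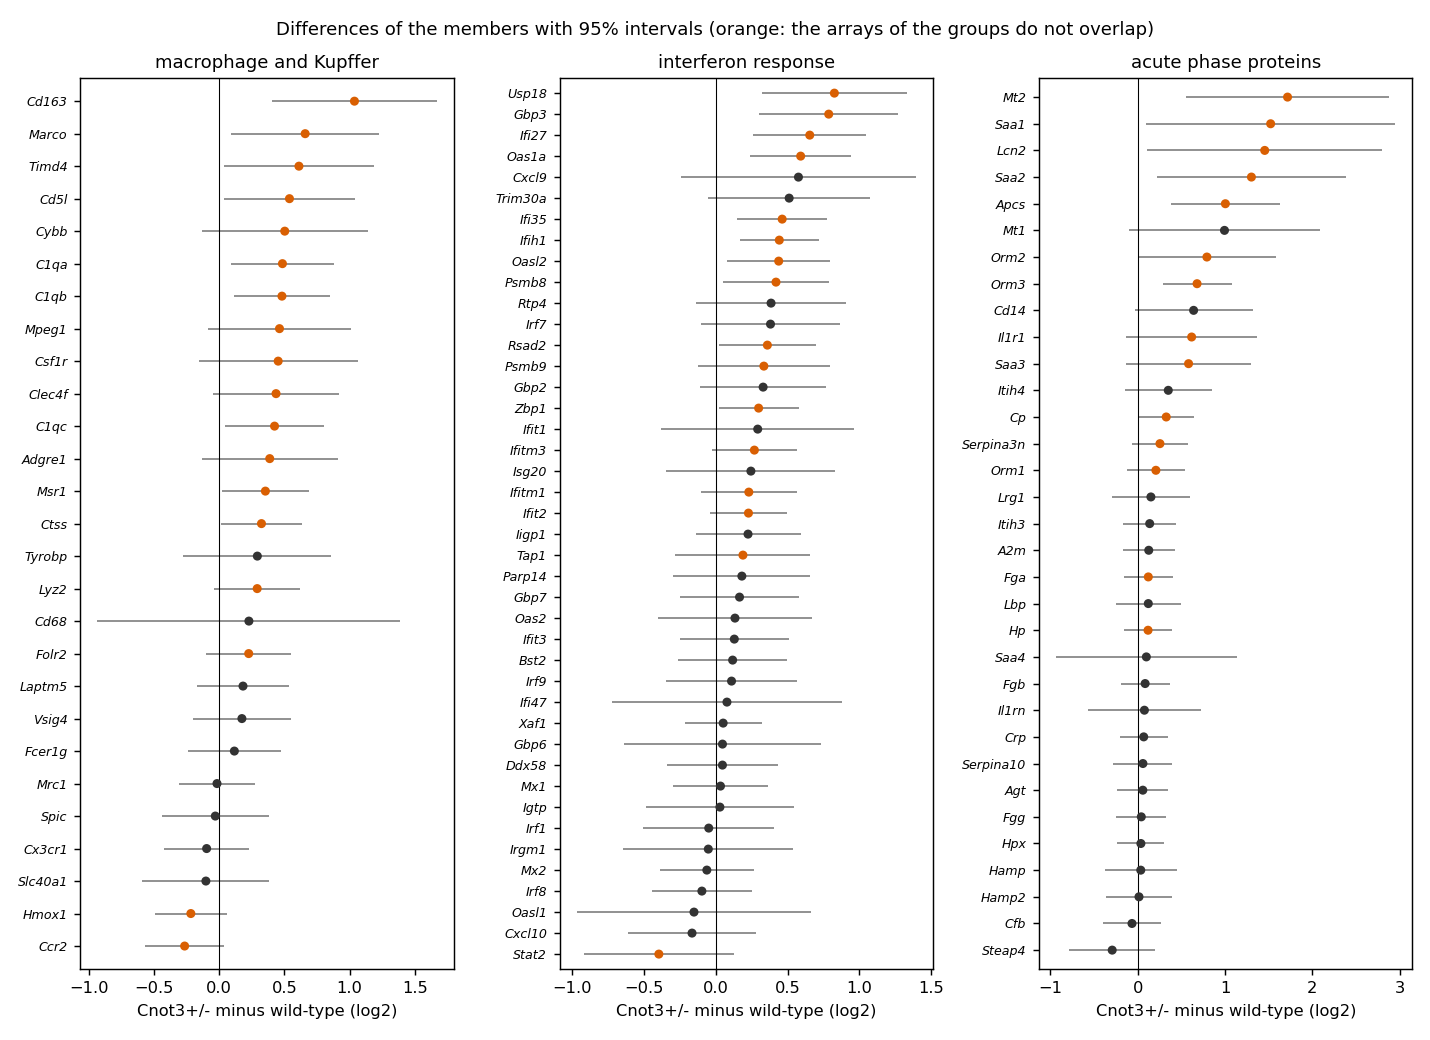
Log2 difference between fasted Cnot3+/- and wild-type liver (points, horizontal axis) with 95% confidence intervals (lines) for every measured member of 3 gene lists; orange points mark genes whose arrays do not overlap between the groups. Most members lie right of 0, led by Cd163 at 1.04, Usp18 at 0.83 and Mt2 at 1.72, and no gene passed the test after adjustment over all genes.

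Metallothioneins and glucocorticoid-induced genes overlapped with these lists. Mt2 read 10.83 and 9.69 in wild-type and 12.69 and 11.26 in Cnot3+/- liver (1.72, SE 0.49), and Mt1 read 13.28 and 11.93 against 14.13 and 13.07, so that only Mt2 separated the groups. Without the first Cnot3+/- array Mt2 differed by 1.0, and Mt1, at 0.99 with all arrays, by 0.47; without the second wild-type array Mt1 differed by 0.32. Of 23 glucocorticoid response genes 10 (43.5%) were higher and 2 (8.7%) lower without overlap, against 23.3% and 12.2% of brighter genes. The median was 0.11 (0.05 after centring on brighter genes), with list medians of 0.40 on the first and 0.09 on the second Cnot3+/- array. Sult1e1, Ddit4, Mt2 and Lcn2 were the 4 genes of this list with an unadjusted limma p under 0.05, all higher, against 4.94% of brighter genes. The secreted glutathione peroxidase Gpx3 read 8.17 and 8.41 against 8.83 and 9.43 (0.84, SE 0.21, and 0.54 without the second Cnot3+/- array), while Nfe2l2, the regulator of antioxidant genes, read 10.67 and 10.64 against 10.28 and 10.34, with the opposite sign in its dim second probe set.

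Heat shock chaperones leaned lower: of 31 measured, 26 had a difference under 0, 9 (29%) were lower, against 12.2% of brighter genes, and 1 higher without overlap, and the median was -0.12, or -0.05 without the first Cnot3+/- array. Dnajb4, a co-chaperone of Hsp70, read 10.55 and 10.47 against 10.19 and 9.99, and Fkbp4, a co-chaperone of Hsp90 and steroid receptors, read 11.37 and 11.34 against 10.98 and 10.96; each had 1 of 2 other probe sets with the opposite sign. The lists that describe the basic machinery of the cell stayed near 0: the medians were -0.03 for 43 ribosomal protein genes, 0.01 for 73 genes of oxidative phosphorylation, 0.05 for 36 of the proteasome, 0.02 for 39 translation factors and -0.02 for 31 of endoplasmic reticulum folding. The members of those 5 lists lay between -0.39 and 0.44.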

How the data were processed

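Liver RNA, isolated with ISOGEN and RNeasy, was turned into biotinylated cRNA from 10 ug per sample for Affymetrix mouse arrays, per the labels' protocols. The deposited values are log2 levels made by the authors; the submitters' processing notes name RMA, and its version and the summarisation settings are not given in the sources used here. RMA background correction compresses differences of dim genes. Of 45101 probe sets, 64 are controls, 34945 name 1 gene, 932 several and 9160 none in the platform annotation used; 18032 of 18193 genes were found in the RefSeq table, used for names only.

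The values were fitted without further normalization in limma 3.58.1 (R 4.3.3), with 3 group means over all 6 arrays so that the fed arrays share in the estimate of the spread (residual df 3, prior df 4.24), and adjusted by Benjamini-Hochberg over all genes at 0.05. The p-values measure only the spread between 2 arrays a group; the number of arrays limits the precision. The fit was tested on simulated data.

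Genes were named by rule: CCR4-NOT subunits, Pdk4 and Igfbp1 (from prior knowledge of the study); the 15 smallest p and the 10 largest non-overlapping differences each way above the median level (6.74); the 6 smallest p of each of 51 lists; and the 10 genes farthest apart between the Cnot3+/- arrays. Clone names were left out. The comparison, lists and rule were chosen with earlier results of these data known, and the promoters after values were seen. Promoter windows are RefSeq's (GRCm38.p6). Alternatives covered the arrays in the fit, a replicate block, the variance model, normalization, probe set choice, a filter on dim genes and leaving out each array. Python 3.11.15 and matplotlib 3.10.9 drew the figures.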

Additional observations from a re-analysis of the deposited data

How the results depend on the processing

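With 2 arrays a group, the median half-width of the 95% interval was about 0.33, so smaller differences were within error for a gene of that width. The width varied between genes, so 0.33 is not a limit for every gene. Testing every probe set, added after seeing the data, gave 0 calls, 161 differences of at least 2-fold, 15629 probe sets without overlap, 2508 unadjusted p under 0.05 and 42288 intervals within 2-fold, out of 45037 tested. With only the 9096 genes above the median level tested, the counts were 3226 without overlap, 495 unadjusted p and 8569 intervals. Leaving out 1 array gave 0 to 2 calls, 40 to 135 differences of at least 2-fold, 6542 to 13382 genes without overlap, 601 to 1697 unadjusted p and 16824 to 17642 intervals, where a lone array is assumed to vary like the other groups. Sult1e1 was called without the first Cnot3+/- array (3.30, adjusted p = 0.017 in limma), and Fst (2.85) and Moxd1 (2.79) without the second (adjusted p = 0.00883); leaving out either wild-type array or either fed array gave 0. Of 1184 values of the 121 genes followed through the alternatives that keep both arrays of each group, 1178 kept their direction. The variance model, the replicate block, fitting the fasted arrays alone and the filter on dim genes cannot change a gene's difference. Values under those settings keep their direction by construction, so only the normalizations and probe set choices test it. With shared probe sets left out, Cnot2 was -0.0195, Tob2 0.10, Gas2 0.0561, Pias3 0.0097 and Dgat1 -0.11, since another probe set then stands for the gene, and with the mean over probe sets Cnot7 was -0.0169. Leaving out 1 array moved Cnot3 between -0.13 and 0.10 and Pdk4 between -0.23 and 1.52 and turned no other gene followed. Of 814 list medians under the alternatives, 707 moved by less than the spread between arrays. The 707 include medians that cannot move, under the variance model, the replicate block, the fasted arrays alone and leaving out a fed array.

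The array numbers are not shown to pair the samples: deviations of same-numbered arrays correlated at 0.45 between the fasted groups, 0.04 between the fed and fasted wild-type groups and -0.01 between fed and Cnot3+/- arrays, and there are only 2 pairs. With the replicate block limma called 0 genes over all 6 arrays (smallest adjusted p = 0.278) and 18 over the 4 fasted arrays, 11 higher and 7 lower, with 2213 unadjusted p under 0.05; they included Scara5, Mt2, Mia2, Dnaic1, Keg1, Snhg11, Ddit4, Id1, Fmn2 and Sult1e1. Without the block the 4 fasted arrays alone gave 0 calls.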

Other observations

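Several genes of clock, BMP and early response lists, not described above, differed between the groups. Bhlhe40, a repressor of the circadian clock, read 9.95 and 9.84 in wild-type against 9.22 and 9.07 in Cnot3+/- liver (-0.75, SE 0.24), and lay at 10.61 and 11.39 in fed liver. The clock list as a whole had a median of -0.01 over 22 genes. Of 29 hepcidin, BMP and iron genes 8 (27.6%) were lower and 2 (6.9%) higher without overlap. The shares were 12.2% and 23.3% of brighter genes and 18.5% and 17.5% of all genes. Besides Id1 the lower ones included Id2, an inhibitor of helix-loop-helix factors, at 11.21 and 11.59 against 10.56 and 11.03 (-0.61, and -0.37 without the first Cnot3+/- array). The inhibitory Smad7, at 7.99 on both against 7.75 and 7.70, was also lower. Jchain, the joining chain of secreted antibodies, read 4.95 and 5.67 against 6.12 and 6.21, and its wild-type level was under the array medians; its difference of 0.86 became 0.50 without the first wild-type array.

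The 10 genes above the median level whose Cnot3+/- arrays lay farthest apart differed by 2.07 to 2.85 between those arrays. Pgm2, a phosphopentomutase, read 6.47 and 9.32 on the Cnot3+/- arrays and 6.58 and 8.72 on the wild-type arrays. The Tweak receptor Tnfrsf12a read 7.64 and 10.00 and 7.60 and 10.00 in the same order, Smox, spermine oxidase, 6.43 and 8.72 and 6.32 and 8.42, and Rab30 9.47 and 11.80 and 9.78 and 11.32. The hormone Fgf21 read 8.50 and 10.62 and 9.32 and 11.14, with 5.54 and 5.70 in fed liver. Hspa1b, an inducible Hsp70, ran the other way, at 12.60 and 10.06 and 13.51 and 11.23. In these 6 genes the groups overlapped and the spread inside each genotype was larger than the difference between the genotypes. Ass1, argininosuccinate synthase of the urea cycle, was high on a single array, at 10.68 against 8.22 to 9.14 on the others, and Setdb2 likewise at 11.05 against 8.17 to 9.26.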
